A study of Homo sapiens with 9 samples.

Results

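Common fragile sites are stretches of the genome that break or form gaps when replication is slowed, and many of them lie inside very long genes. The 8 genes described here are CCSER1, FHIT, WWOX, MACROD2, LRP1B, CSMD1, IMMP2L and DLG2. They were taken by name as long genes known at such sites, with earlier results of these data known, and they are 8 of the 323 protein-coding genes of at least 500 kb in a GRCh37 annotation. Each was described over the 40 kb bins it covers and over the 1 Mb to either side. The cells were IMR90, a diploid line of human lung fibroblasts, carrying ER:HRAS(G12V), an activated HRAS fused to the oestrogen receptor that 4-hydroxytamoxifen (4OHT) switches on. Hi-C, which counts how often pairs of genomic places are ligated together, was made in 3 libraries of growing cells without 4OHT. The other 2 libraries were of RAS-induced senescent (RIS) cells, in which 100 nM of 4OHT had acted over 6 days. Growing 3 is labelled as also carrying an MSCV Vector and was counted as a growing replicate. All libraries come from 1 cell line, so SE and p-values reflect the spread between libraries of that line.

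In hg19, CCSER1 (ENSG00000184305) lies at chr4:91048545-92526446 and FHIT (ENSG00000189283) at chr3:59733003-61237133. WWOX (ENSG00000186153) lies at chr16:78133297-79246564 and MACROD2 (ENSG00000172264) at chr20:13976015-16033842. LRP1B (ENSG00000168702) lies at chr2:140988992-142888585 and CSMD1 (ENSG00000183117) at chr8:2792875-4852494. IMMP2L (ENSG00000184903) lies at chr7:110302700-111202573 and DLG2 (ENSG00000150672) at chr11:83166055-85339379. Their lengths run from 900 kb for IMMP2L to 2173 kb for DLG2, which is 24 to 55 bins. Nearly all of this length is intron, since the exons of the canonical transcript cover between 0.201% of WWOX and 0.834% of LRP1B. At a median of 1702 kb they were longer than the 323 long genes, whose median was 726 kb. Shares given below over all long genes are thus mostly of shorter genes. Their GC content, 34.8% to 42.6% with a median of 37.5%, was close to the median of 38.2% over the 323 long genes. Their neighbourhoods differ. DLG2 had 7 and 11 protein-coding genes within 1 Mb of its left and right ends, whereas LRP1B had 0 and 2. LRRN3 lies inside IMMP2L and FLRT3 inside MACROD2, which SEL1L2 also overlaps.

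The genes encode unrelated proteins. FHIT hydrolyses dinucleoside polyphosphates and WWOX is an oxidoreductase with WW domains, and both are known as tumour suppressors lost by deletion at their fragile sites. MACROD2 removes ADP-ribose from proteins, and IMMP2L is a subunit of a peptidase of the inner mitochondrial membrane. LRP1B is a large endocytic receptor of the LDL receptor family and CSMD1 a membrane protein that regulates complement. DLG2 is a scaffold protein of synapses, and CCSER1 a serine-rich coiled-coil protein whose role is less well known. Long genes of this kind replicate late and are poor in replication origins. In nuclei, chromatin of like activity meets over long distances, active regions in the A compartment and inactive regions in the B compartment. Senescent fibroblasts are known to gather inactive chromatin into dense foci.

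In the mean track of growing cells the start of transcription lay at or next to a border between domains of contact in 3 of the 8 genes, against 29.8% of 322 long genes. Borders were placed at minima of the insulation score, the log2 contact across a bin within 520 kb to either side against the mean of the chromosome. In growing cells the minimum lay in the start bin of WWOX, with a mean score of -1.11, and 40 kb inside CCSER1 and DLG2, with -0.98 and -2.36. Single libraries placed the minimum in the same bin as the mean track in all 5 cases at WWOX and DLG2, whereas at CCSER1 it lay 120 and 40 kb inside the gene in Growing 1 and 2 and 80 kb before the start in Growing 3. The start regions of these 3 genes are shown because the border of the mean track lies in the bin of the start or the next one. They are 300 bases each, 250 before and 50 after the first base of the canonical transcript, read from GRCh37, whose chromosome lengths equal those of the files in 23 of 23 cases. The regions are chr16:78133301-78133600 on the plus strand for WWOX, chr4:91048295-91048594 on the plus strand for CCSER1 and chr11:85338339-85338638 on the minus strand for DLG2. Capitals mark CG dinucleotides, the sites of DNA methylation.
WWOX: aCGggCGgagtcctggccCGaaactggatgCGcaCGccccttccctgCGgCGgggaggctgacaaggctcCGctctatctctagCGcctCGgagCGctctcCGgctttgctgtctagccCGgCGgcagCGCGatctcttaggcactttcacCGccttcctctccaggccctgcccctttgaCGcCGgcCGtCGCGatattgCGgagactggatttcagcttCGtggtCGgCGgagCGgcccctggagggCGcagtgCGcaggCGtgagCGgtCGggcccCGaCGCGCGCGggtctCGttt
CCSER1: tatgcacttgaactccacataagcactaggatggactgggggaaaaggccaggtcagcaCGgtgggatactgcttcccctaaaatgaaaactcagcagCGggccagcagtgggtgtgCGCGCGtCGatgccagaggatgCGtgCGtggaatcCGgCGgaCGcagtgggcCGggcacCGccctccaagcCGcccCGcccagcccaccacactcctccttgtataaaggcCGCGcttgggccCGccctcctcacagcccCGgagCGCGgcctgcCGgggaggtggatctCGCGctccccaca
DLG2: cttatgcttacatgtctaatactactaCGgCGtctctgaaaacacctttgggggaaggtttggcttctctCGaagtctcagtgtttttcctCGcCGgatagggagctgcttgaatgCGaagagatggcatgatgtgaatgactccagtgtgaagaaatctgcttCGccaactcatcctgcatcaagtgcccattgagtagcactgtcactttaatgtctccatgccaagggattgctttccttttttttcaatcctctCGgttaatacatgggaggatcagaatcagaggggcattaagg

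The start regions at these borders differed in their base composition. That of WWOX held 38 CG dinucleotides, that of CCSER1 24 and that of DLG2 8, against a median of 23 over 19818 protein-coding start regions of the same length. More CG dinucleotides than in 85.2% of all start regions were thus counted at WWOX, and more than in 22.0% at DLG2. The letters GGGCGG, searched on both strands, occurred once or more in 61.5% of all start regions. They were found 4 times at CCSER1, 1 time at WWOX and 0 times at DLG2. A match or its absence in 300 bases describes this window alone.

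Balanced Hi-C values have equal totals, so depth was read from the contacts recovered from them. There were 154318992, 175410468 and 180775315 contacts in Growing 1 to 3, and 109967509 and 150689993 in RIS 1 and 2. The mean depth of the RIS libraries was 76.6% of that of the growing ones. Summed over the bins of a gene, contacts on its own chromosome ran from 50780, WWOX in RIS 1, to 308097, DLG2 in Growing 3. A contact between 2 bins of the same gene counts at both bins in this sum. Values over whole genes thus rest on many contacts while single pairs of bins do not. In the alignment table of the study Growing 3 and RIS 2 had many duplicate reads and the other 3 libraries few, so differences were also computed within these classes. RIS 2 was set against Growing 3, and RIS 1 against the mean of Growing 1 and 2. Each such difference rests on a single RIS library and has no SE. Growing 3 is also labelled with an MSCV Vector, which cannot be told apart from the class of many duplicates. Over the genome the contact expected at a distance was as high in RIS as in growing cells at 40 kb (log2 ratio 0.01) but lower at 600 kb (-0.15), and self-contact, end contact, contact with flanks, compartment score and preference are computed below from contact divided by that expected at the same distance. Insulation scores, shares, single pairs of bins and contacts between chromosomes were not divided in this way. How often a bin was sequenced before balancing, its visibility, differed between conditions by at most 0.06 on the log2 scale in any of the 8 genes.

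Contact within CCSER1 and within DLG2 fell in RIS, and contact within FHIT and MACROD2 rose. Self-contact is the log2 of the mean observed over expected contact of all pairs of bins within a gene, where 0 is the mean of the chromosome at the same distances. CCSER1 measured 0.26, 0.22 and 0.15 in Growing 1 to 3 and -0.20 and -0.12 in RIS 1 and 2. All growing values were thus above the chromosome mean and both RIS values below it, with no overlap. The difference was -0.37 ± 0.03 (SE of limma, 3 against 2 libraries), a fold of 0.776, with an adjusted p of 2.11e-06, and it ranked 2 from the lowest among 322 long genes. Within the class with few duplicates it was -0.44 and within that with many -0.26.

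The values of DLG2 were 0.37, 0.34 and 0.32 in Growing 1 to 3, against 0.15 and 0.25 in RIS 1 and 2, again without overlap. Its self-contact fell by 0.14 (SE 0.03, adjusted p = 0.00133), with -0.20 within the class of few duplicates and -0.07 within that of many. Without RIS 1 the difference of DLG2 was -0.09 (adjusted p = 0.0436). FHIT measured 0.52, 0.51 and 0.46 in growing against 0.60 and 0.60 in RIS cells, a rise of 0.10 (SE 0.03, adjusted p = 0.00535). MACROD2 had the highest self-contact of the 8 genes, 0.91, 0.87 and 0.80 in growing against 0.95 and 1.02 in RIS cells, and rose by 0.12 (SE 0.03, adjusted p = 0.00678). Within the class of few duplicates MACROD2 differed by 0.06 and within that of many by 0.22. The other 4 genes did not pass. LRP1B stood between 0.59 and 0.65 over the 5 libraries and differed by -0.01 (SE 0.03). WWOX lay between 0.27 and 0.35 and differed by -0.01 (SE 0.03), IMMP2L by 0.05 (SE 0.03) and CSMD1 by 0.04 (SE 0.03). In all, 2 of the 8 genes rose, where 32.6% of the 322 long genes rose, and 2 fell, where 27.0% did, so the count of changed genes was near that of long genes at large. Their median difference was 0.02 and that of all long genes 0.02. For MACROD2 the call was lost without RIS 2, at 0.09, and on contacts before balancing, at 0.08. Averaging log2 values of single pairs in place of the ratios took FHIT to 0.06 (adjusted p = 0.0868) and MACROD2 to -0.01 (adjusted p = 0.835).

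**Figure D1:**
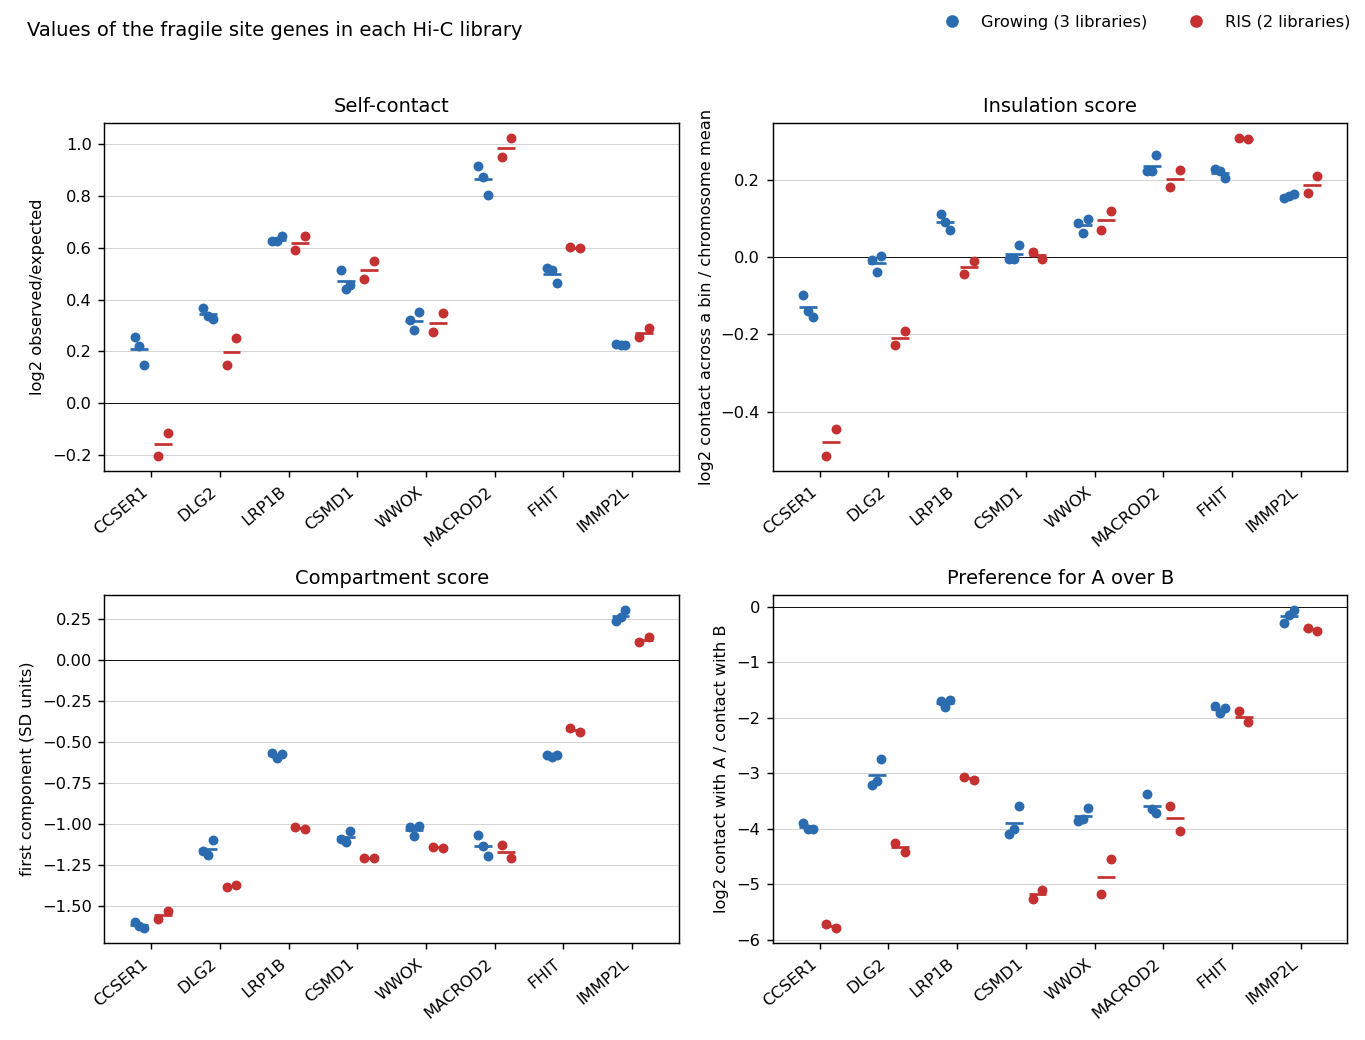
Values of the 8 genes in each library, 4 panels with the measure on the y axis (log2, or SD units for the compartment score). Blue points are the 3 growing and red points the 2 RIS libraries, and bars are group means. CCSER1, DLG2 and LRP1B show RIS points below all growing points in insulation and in preference for A over B.

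The lower contact within CCSER1 was measured on both sides of the gene and in all 3 classes of distance. Pairs 40 to 200 kb apart differed by -0.32, pairs 240 to 600 kb apart by -0.39 and pairs over 600 kb apart by -0.37, and in each class the RIS libraries were both lower than every growing one. Split at its middle, the gene differed by -0.42 within its 5′ side, by -0.35 within its 3′ side and by -0.36 between the sides. In DLG2 the difference was found near the diagonal instead, -0.24 at 40 to 200 kb and -0.21 at 240 to 600 kb, while over 600 kb the groups overlapped (-0.10). LRP1B, whose summed self-contact did not pass, also lay lower at short distances, from -0.18 to -0.16 in growing and at -0.36 and -0.34 in RIS cells at 40 to 200 kb. At these short distances 6 of the 8 genes had both RIS libraries below all growing libraries, against 41.9% of long genes.

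Over 600 kb the picture was another. Here FHIT, MACROD2 and IMMP2L had both RIS libraries above all growing libraries, by 0.14, 0.18 and 0.12, which is 3 of 8 genes against 25.5% of the 208 long genes with such pairs. IMMP2L combined both directions, since its 5′ side and its 3′ side each had less contact with themselves in RIS (-0.06 and -0.10) while the sides met more often (0.14), without overlap in any of the 3. In the same directions the groups did not overlap in 38.5%, 41.3% and 40.1% of long genes. LRRN3, a neuronal membrane protein gene 437 kb from the start of IMMP2L, had contact with the start of its host gene of 0.79, 0.79 and 0.87 in growing against 0.86 and 0.99 in RIS cells. These groups overlapped. FLRT3, which encodes a fibronectin leucine-rich transmembrane protein, lies 328 kb from the start of MACROD2. Its bin met the first 3 bins of MACROD2 at -0.68, -0.81 and -0.32 in growing and at -1.34 and -0.90 in RIS cells, 56 to 142 contacts per library, with RIS below growing in both libraries. With the rest of MACROD2 it measured 1.13 to 1.36 in growing and 1.32 in both RIS libraries. These nested genes were described after the maps of their hosts had been seen.

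**Figure D2:**
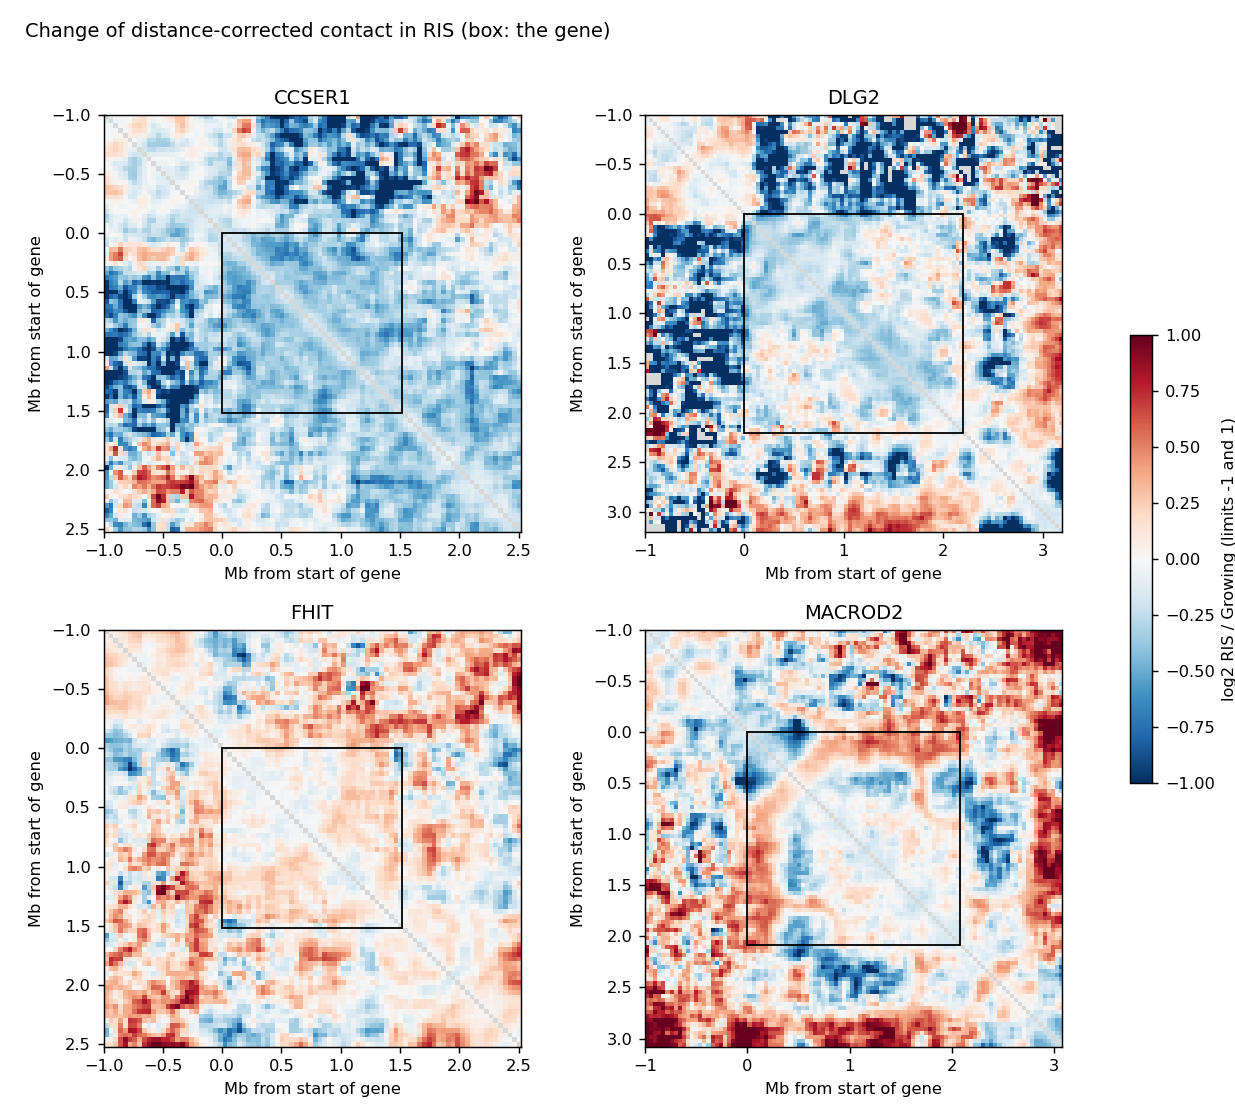
Change of distance-corrected contact in RIS for CCSER1, DLG2, FHIT and MACROD2 with 1 Mb to either side. Both axes give Mb from the start of the gene in the direction of transcription, the box is the gene, colour is the log2 ratio of the RIS to the growing mean after averaging over 3 by 3 bins, cut at -1 and 1, and grey marks the diagonal and pairs without a value. The box of CCSER1 is mostly blue, where self-contact differed by -0.37, and that of FHIT mostly pale red, where it differed by 0.10.

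Contact across CCSER1, DLG2 and LRP1B fell in RIS, and contact across FHIT rose. CCSER1 had mean insulation scores of -0.10, -0.14 and -0.15 in growing against -0.51 and -0.44 in RIS cells, a difference of -0.35 ± 0.03 (SE, adjusted p = 2.62e-06), which ranked 4 from the lowest of 322. DLG2 went from between -0.04 and 0.00 in growing to -0.23 and -0.19 in RIS cells, a fall of 0.20 (SE 0.02, adjusted p = 3.76e-05). LRP1B measured 0.11, 0.09 and 0.07 in growing against -0.04 and -0.01 in RIS cells, a fall of 0.12 (SE 0.02, adjusted p = 0.00099). FHIT was nearly constant within each condition, from 0.20 to 0.23 in growing and at 0.31 in both RIS libraries, and rose by 0.09 (SE 0.02, adjusted p = 0.00336). So 3 of the 8 genes fell, where 32.0% of long genes fell, and 1 rose, where 34.8% did. CSMD1, IMMP2L, WWOX and MACROD2 differed by -0.0018, 0.03, 0.01 and -0.03, each with an SE of 0.02 and none past the test. The 4 calls held under each of the 12 alternatives tried for insulation. MACROD2 passed as lower with a window of 280 kb (-0.07, adjusted p = 0.0317) and with the duplicate class as a block (-0.04, adjusted p = 0.0483), which made 4 of 8 genes lower, where 33.2% and 35.7% of long genes were.

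In the mean tracks the minimum nearest to the start lay in the same bin in both conditions in 5 of the 8 genes (DLG2, FHIT, IMMP2L, LRP1B and WWOX). WWOX had its minimum in the start bin in both conditions, with mean scores of -1.11 in growing and -1.16 in RIS cells. At DLG2 the minimum 40 kb inside the gene stood at -2.37, -2.36 and -2.36 in growing against -2.76 and -2.86 in RIS cells, and it was the deepest of those in or within 1 Mb of the 8 genes. Further minima inside DLG2, 1000 and 1800 kb from its start, were present in the mean tracks of both conditions, at -0.54 and -0.57 in growing against -0.74 and -0.71 in RIS cells. At CCSER1 the minimum of the mean track lay 40 kb inside the gene in growing cells and 120 kb inside it in RIS cells, in a flat stretch where RIS 1 and RIS 2 placed it 120 and 160 kb inside the gene and Growing 3 placed it outside, 80 kb before the start. FHIT and IMMP2L had their nearest minimum upstream, 280 and 160 kb before the start in both conditions. MACROD2 had a minimum 160 kb before its start in both conditions, and the mean RIS track held a further one 80 kb inside the gene, at -1.08 with a prominence of 0.138, which was found in RIS 1 but not in RIS 2. At CSMD1 the nearest minimum was shallow, -0.11 at 80 kb before the start in growing and -0.06 at 40 kb inside the gene in RIS cells. Its position varied between libraries here too, since Growing 1 had it 240 kb and RIS 2 200 kb inside the gene. Near its 3′ end LRP1B had a shallow minimum of -0.08 in growing cells, 1760 kb from its start, and a deeper one of -0.48 in RIS cells, 1840 kb from its start. Its position varied within conditions, from 1560 to 1880 kb over the growing libraries and at 1880 and 1840 kb in RIS 1 and 2, so Growing 1 and RIS 1 shared a bin. The score in the start bin was lower in both RIS libraries than in all growing libraries in 5 of the 8 genes (CCSER1, DLG2, LRP1B, MACROD2 and WWOX), against 41.3% of long genes.

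**Figure D3:**
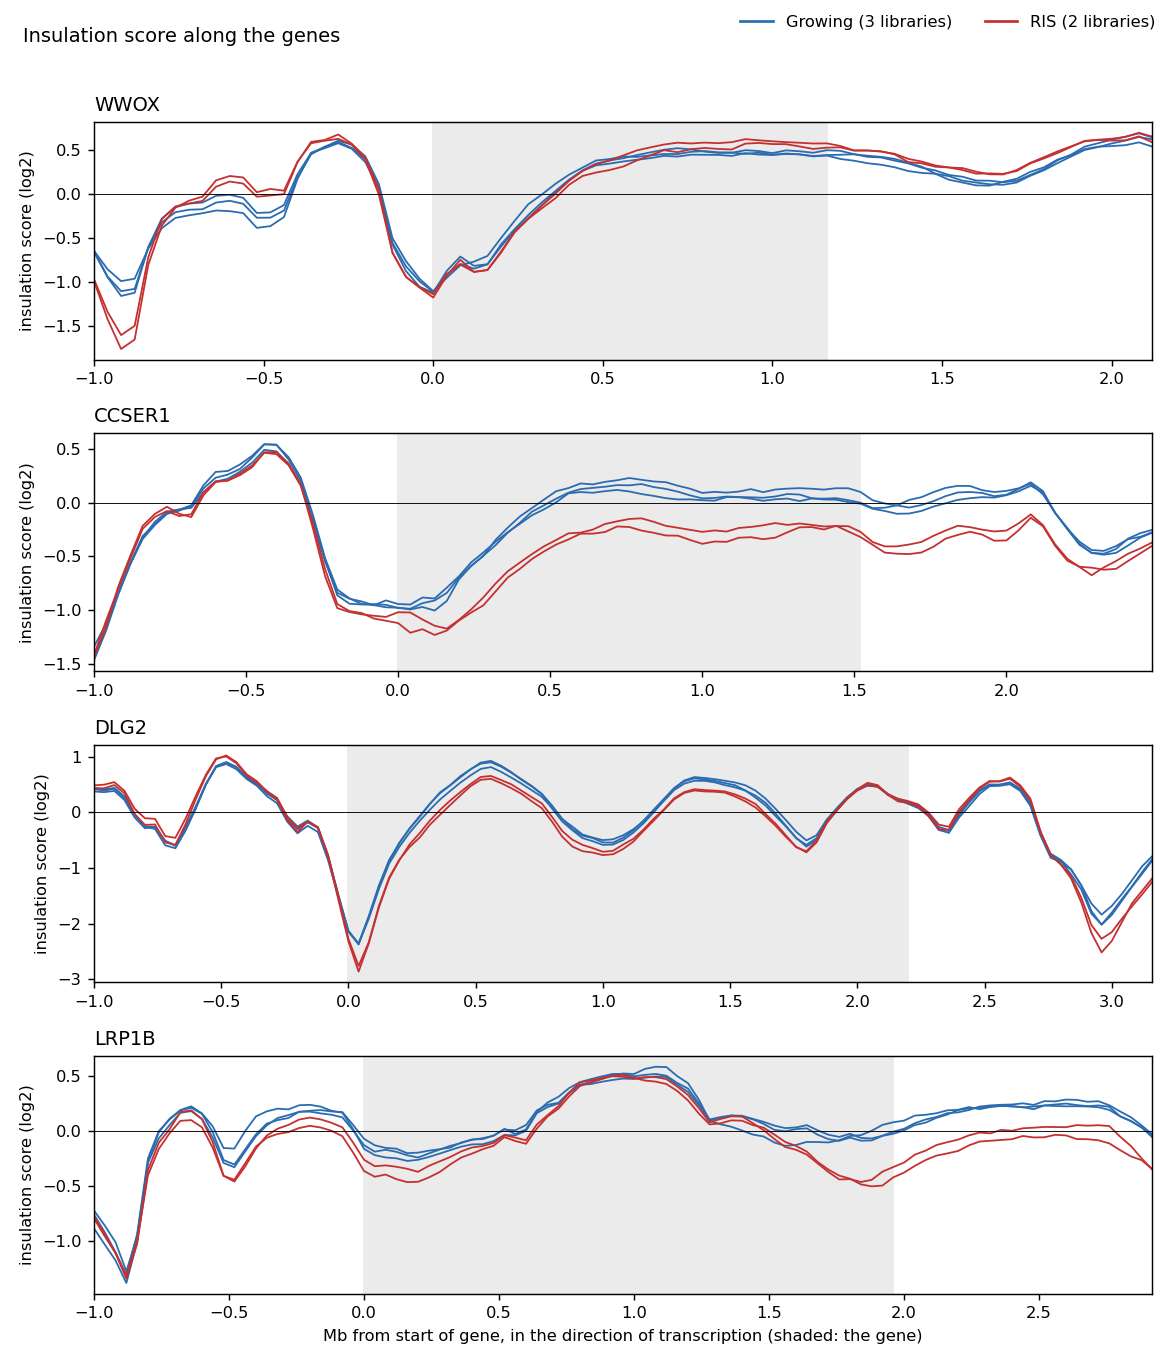
Insulation score (log2, y axis) along WWOX, CCSER1, DLG2 and LRP1B against Mb from the start of the gene, shaded from start to end. Blue lines are the 3 growing and red lines the 2 RIS libraries. The minimum at the start of WWOX lies at -1.11 and -1.16 in the means of growing and RIS cells, and in CCSER1 the red lines run below the blue ones through the whole gene.

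The 2 ends of a gene met more or less often in RIS in several genes, but no difference passed the test. End contact is the observed over expected contact of the 3 bins at one end with the 3 at the other. FHIT measured -0.25, -0.40 and -0.73 in growing against -1.49 and -1.01 in RIS cells, from 39 to 52 contacts in growing and 14 and 24 in RIS libraries. The ends of FHIT were thus the only ones below the chromosome mean, and lower still in both RIS libraries, by 0.79 on the log2 scale (SE 0.19, adjusted p = 0.0623). Ranked from the lowest of 321 genes it was 6. A minimum of the insulation score inside FHIT, 1360 kb from its start, lay 3 bins from its 3′ end bin. It stood at -0.45 in the growing and -0.41 in the RIS mean track. The 3 bins at that end thus lay beyond this minimum, and 5 bins reach across it. WWOX measured 1.08, 1.01 and 1.30 in growing against 0.48 and 0.88 in RIS cells, a difference of -0.45 (SE 0.15, adjusted p = 0.111). FHIT and WWOX were the 2 genes with both RIS libraries below all growing ones, against 21.2% of long genes. IMMP2L and LRP1B pointed the other way, by 0.22 (SE 0.08, adjusted p = 0.149) and 0.30 (SE 0.12, adjusted p = 0.152), with both RIS libraries above all growing ones, as in 25.2% of long genes. MACROD2 had the highest end contact, a growing mean of 2.05 with an SD of 0.35 over 3 libraries and a RIS mean of 2.50 with an SD of 0.26 over 2. Its groups overlapped, as did those of CCSER1, CSMD1 and DLG2. FHIT differed by -1.16 within the class of few duplicates and by -0.28 within that of many. By limma 0 of the 8 genes were called, where 4.36% of 321 long genes were, and at an unadjusted p under 0.05 there were 4 (FHIT, WWOX, IMMP2L and LRP1B), where 26.2% of long genes were. FHIT passed on contacts before balancing (adjusted p = 0.0372), after centring on the median gene (adjusted p = 0.0389) and among genes of at least 300 kb (adjusted p = 0.0418), where 9.03%, 4.67% and 9.88% of genes were called. WWOX passed with the duplicate class as a block (-0.50, adjusted p = 0.0352), where 6.54% were called. With 5 bins at each end FHIT changed sign, to 0.14 (adjusted p = 0.237), while MACROD2 (0.47), LRP1B (0.22) and CCSER1 (-0.35) then passed, where 29.2% of long genes did.

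Contact with the 1 Mb to either side moved in opposite directions in CCSER1 and DLG2, though with flanks of 500 kb both fell. CCSER1 measured 0.42, 0.29 and 0.21 in growing against 0.05 and 0.13 in RIS cells and fell by 0.22 (SE 0.05, adjusted p = 0.00464), with -0.31 within the class of few duplicates and -0.07 within that of many. DLG2 measured -0.02, -0.06 and -0.06 in growing and 0.07 in both RIS libraries and rose by 0.12 (SE 0.03, adjusted p = 0.00502). With 1 gene of 8 in each direction, the counts stood below the 23.6% of long genes that fell and the 27.6% that rose. For both genes the 2 flanks behaved differently. The upstream flank of DLG2, beyond the border at its start, met the gene at between -1.66 and -1.57 in growing and at -1.95 and -2.01 in RIS cells, whereas its downstream flank went from between 0.66 and 0.71 to 0.88 and 0.89. The upstream flank of CCSER1 met the gene at between -0.94 and -0.87 in growing and at -1.24 and -1.27 in RIS cells, and its downstream flank overlapped between conditions. IMMP2L was the third gene with less contact to its upstream flank in both RIS libraries (-0.15), which makes 3 of 8 against 32.3% of long genes.

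Both RIS libraries lay above all growing libraries in contact with the upstream flank in 4 of the 8 genes (LRP1B, CSMD1, FHIT and MACROD2), against 36.0% of long genes, and below them in contact with the downstream flank in 3 (LRP1B, CSMD1 and IMMP2L), against 35.1%. LRP1B met its upstream flank at between 0.31 and 0.45 in growing and at 0.66 and 0.70 in RIS cells, and its downstream flank at between 1.17 and 1.27 in growing and at 0.93 and 0.99 in RIS cells. CSMD1 differed by 0.21 upstream and -0.12 downstream. The 2 flanks of a gene met each other more often in both RIS libraries than in all growing libraries in 4 of the 8 genes, against 42.5% of long genes. At MACROD2 the values were 1.19, 1.17 and 0.95 for growing cells against 1.53 and 1.60 for RIS cells, and at FHIT, WWOX and CSMD1 the RIS means were higher by 0.26, 0.13 and 0.14. At IMMP2L and LRP1B both RIS libraries lay below, by 0.33 and 0.22, as in 27.0% of long genes. Flanks of 500 kb turned the difference of DLG2 to -0.19 (adjusted p = 4.9e-05). FHIT (0.19, adjusted p = 2e-04) and CSMD1 (0.11, adjusted p = 0.0146) then rose and CCSER1 fell, which made 2 of 8 genes in each direction, where 31.1% of long genes rose and 28.9% fell. With flanks of 1 Mb and without RIS 1 the difference of CCSER1 was -0.18 (adjusted p = 0.111). On contacts before balancing DLG2 did not pass (0.09, adjusted p = 0.176) and IMMP2L passed as lower (-0.17, adjusted p = 0.0053), against -0.07 (adjusted p = 0.0587) on balanced ones, so that 2 of 8 genes fell and 0 rose, where 21.1% of long genes fell. Leaving out single libraries also made calls, of MACROD2 without Growing 1 (0.18) or Growing 2 (0.12), of WWOX without RIS 1 (0.10) and of FHIT without RIS 2 (0.08).

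In growing cells 7 of the 8 genes had negative compartment scores, which place them in B, and IMMP2L a positive one. The score is the first component of the distance-corrected contact pattern in 120 kb bins, in SD units of the chromosome, with the sign set by gene density. In RIS 5 genes moved toward B and FHIT moved toward A. LRP1B moved most, from -0.57, -0.60 and -0.57 in growing to -1.02 and -1.03 in RIS cells. The spread within each condition was a small part of this step of -0.45 (SE 0.03, adjusted p = 0.000599), which ranked 9 from the lowest of 322, and 2 of the 17 bins of 120 kb of LRP1B changed from a positive to a negative mean score. DLG2 differed by -0.23 (SE 0.04, adjusted p = 0.00419), IMMP2L by -0.14 (SE 0.03, adjusted p = 0.0126), CSMD1 by -0.13 (SE 0.03, adjusted p = 0.0181) and WWOX by -0.11 (SE 0.03, adjusted p = 0.0296). IMMP2L kept a positive mean score, 0.13 in RIS cells, with 3 of its 8 bins of 120 kb turning negative. FHIT rose by 0.16 (SE 0.03, adjusted p = 0.00508), from between -0.59 and -0.58 to -0.41 and -0.44. CCSER1 had the lowest score in growing cells, -1.62, and differed by 0.06 (SE 0.03, adjusted p = 0.125), and MACROD2 differed by -0.04 (SE 0.05).

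Thus 5 of the 8 genes fell, where 32.6% of long genes fell, and 1 rose, where 23.9% did. Among the 130 long genes of at least 800 kb, 57 fell and 19 rose. The median difference of the 8 genes was -0.12 and that of all long genes -0.03, and the median score in growing cells was -1.06 against -0.46. Several of these calls were lost when a library was left out. Without RIS 1 the adjusted p was 0.0537 for FHIT, 0.095 for IMMP2L, 0.102 for CSMD1 and 0.124 for WWOX, without RIS 2 it was 0.0592, 0.0934 and 0.142 for the last 3, and without Growing 1 it was 0.0692 for WWOX, in each case with nearly the same difference. Centring each library on its median gene, which differed by 0.11 between conditions, took FHIT to 0.04 (adjusted p = 0.527) and MACROD2 to -0.15 (adjusted p = 0.0309). Then 6 of the 8 genes fell, where 50.6% of long genes fell, and 0 rose, where 14.3% did, so the distance of the members' count from that of long genes depended on the scaling. The start of DLG2 was also an edge between compartments, with scores of 0.93, 0.99 and 1.09 for growing and 0.82 and 0.84 for RIS cells in the 120 kb bin that holds the start. The next such bin inside the gene scored from -1.24 to -1.16 in growing cells, and -1.30 and -1.28 in RIS 1 and 2.

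Beyond 2 Mb on their own chromosome, 5 genes had less contact with A relative to B in RIS. Preference is the log2 of the contact with the 20% of bins of highest score over that with the 20% of lowest score, so negative values mean more contact with B. CCSER1 went from -3.89, -4.01 and -4.01 in growing to -5.71 and -5.78 in RIS cells, a difference of -1.77 ± 0.13 (SE, adjusted p = 0.000111). It ranked 8 from the lowest of 322. LRP1B went from -1.69, -1.80 and -1.69 to -3.06 and -3.13 (-1.37, SE 0.13, adjusted p = 0.000161), and DLG2 from -3.21, -3.14 and -2.74 to -4.25 and -4.42 (-1.31, SE 0.17, adjusted p = 0.000464). These 3 genes were the ones whose insulation score also fell. CSMD1 and WWOX, whose insulation and self-contact did not pass, fell by 1.28 (SE 0.18, adjusted p = 0.000609) and 1.10 (SE 0.20, adjusted p = 0.00203). FHIT, IMMP2L and MACROD2 differed by -0.14, -0.24 and -0.23, with SE of 0.14, 0.14 and 0.18, and did not pass.

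In all 5 of the 8 genes fell and 0 rose, where 40.4% of the 322 long genes fell and 26.4% rose. Among the 130 long genes of at least 800 kb, 77 fell and 21 rose. The median difference of the 8 genes was -1.19 and that of all long genes -0.16. All long genes are mostly shorter than these 8, and the part of gene length in this gap was not tested. In growing cells the median preference of the 8 genes was -3.31, against -1.43 over all long genes. The 5 calls held under each of the 12 alternatives tried for this measure, and the median of the libraries over all long genes itself differed by -0.13. Both sides of the ratio differed. Contact with the A bins was lower in both RIS libraries than in all growing libraries in 6 genes, against 58.1% of long genes, by as much as 1.13 at CCSER1. Contact with the B bins was higher in 7 genes, against 42.2% of long genes, by as much as 0.79 at LRP1B, and the exception was FHIT (-0.06). Since the bins of A and B were set from all 5 libraries together, and the compartment score is built from the same contacts, score and preference are not independent of each other.

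Fewer of the contacts of these genes were local in RIS. The share of balanced contacts within 2 Mb lay between 56.0% and 59.7% in growing and at 42.4% and 44.4% in RIS cells at CCSER1, a difference of -14.0 percentage points. It differed by -9.15 points at DLG2 and -9.07 points at LRP1B. Both RIS libraries were below all growing libraries in 7 of the 8 genes, against 59.0% of long genes, and the exception was WWOX (0.777 points). At CCSER1 the contacts went mainly to the same chromosome beyond 2 Mb, 35.6% to 38.7% in growing cells and a mean of 47.7% in RIS cells. Both RIS libraries lay above all growing libraries there in 4 genes (CCSER1, DLG2, LRP1B and IMMP2L), against 27.6% of long genes. At WWOX and MACROD2 this share was lower in both RIS libraries, by 3.78 and 2.12 points, as it was in 28.3% of long genes.

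**Figure D4:**
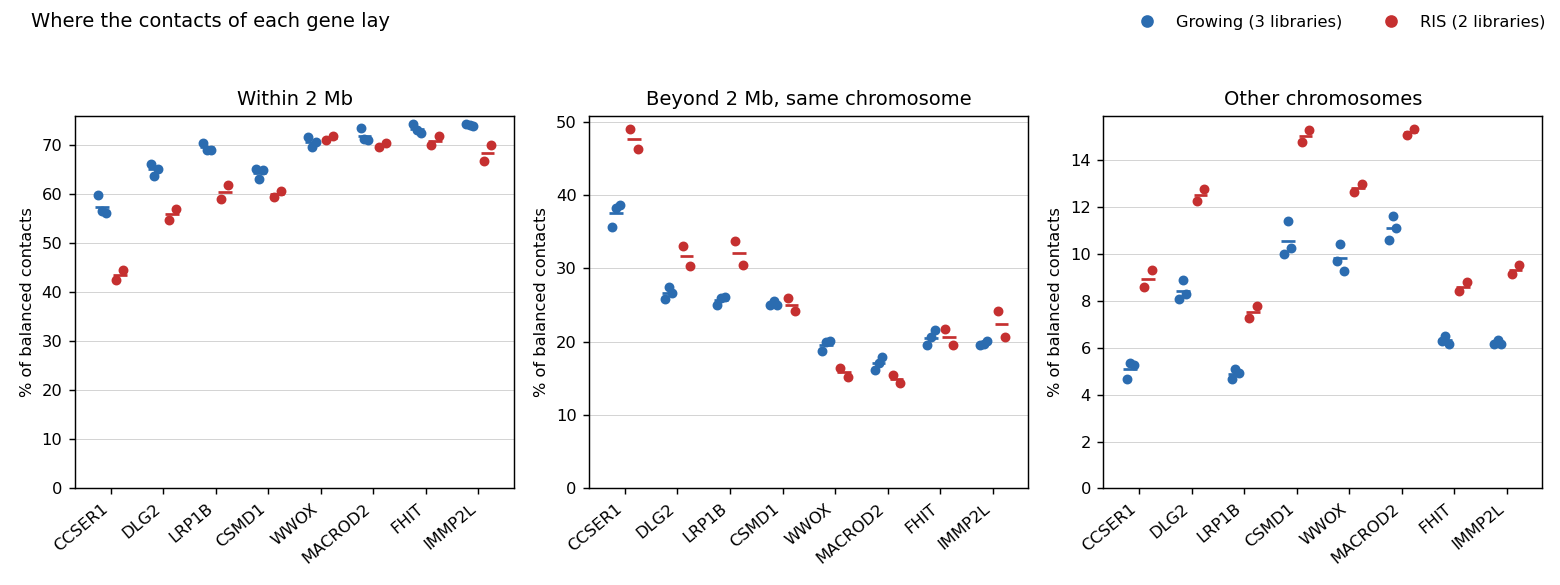
Share of the balanced contacts of each gene (%, y axis) within 2 Mb, beyond 2 Mb on the same chromosome and on other chromosomes. Blue points are the 3 growing and red points the 2 RIS libraries, and bars are group means. At CCSER1 the share within 2 Mb was 56.0% to 59.7% in growing and 42.4% and 44.4% in RIS cells.

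The share on other chromosomes rose in all 8 genes, as it did in 95.0% of long genes. It ranged from 4.90% (LRP1B) to 11.1% (MACROD2) in the growing means and from 7.52% to 15.2% in the RIS means of the same genes. In log2 units the share rose by between 0.39 (WWOX) and 0.81 (CCSER1), with a median of 0.54 against 0.41 over all long genes. Every gene has the same SE here, 0.06, because limma estimated 1 common spread for all long genes. After centring each library on its median gene, which takes out the shift common to all long genes, CCSER1 (0.40), LRP1B (0.21), IMMP2L (0.17) and DLG2 (0.16) still passed as higher, where 35.7% of long genes did. The other 4 did not pass, and 32.3% of long genes passed as lower.

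Contacts between the 8 genes were few, since they lie on 8 chromosomes. All 28 pairs together had 311, 439 and 402 contacts in the growing and 376 and 566 in the RIS libraries, and a single pair had from 0 to 78. As a ratio to the mean of the same 2 chromosomes, both RIS libraries lay above all growing libraries in 7 pairs and below them in 0 pairs, where 15.0% of 48956 pairs of long genes lay above and 9.25% below. Long genes are shorter, with a median of 726 kb against 1702 kb here. Their pairs thus mostly cover fewer bins, and the shares are not of like pairs. Over all 28 pairs the median ratio was 0.86, 1.07 and 0.97 in Growing 1 to 3 and 0.98 and 1.41 in RIS 1 and 2, so the groups overlapped. The pairs share genes, and 4 of the 7 hold DLG2. CSMD1 met MACROD2 at 1.97, 2.48 and 2.69 times the chromosome mean in growing and at 3.58 and 3.81 times in RIS cells, and WWOX at 2.63, 2.73 and 2.13 times in growing and 3.30 and 3.58 times in RIS cells. These 2 pairs also had the highest RIS means among the 7. Counting error is large at such depth, and no test was made of these pairs.

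Few differences were called at single pairs of bins. Of 7203 pairs of bins within the 8 genes 0 were called by limma on balanced values, where 0.0388% of 1959041 pairs up to 2 Mb were called, and 0 of all pairs with any library left out. At an unadjusted p under 0.05 there were 220 higher and 383 lower pairs, which is 3.05% and 5.32%, against 4.78% and 5.42% of all pairs. The share of lower pairs was thus near that of all pairs, and the share of higher pairs below it. Of the 383 lower pairs 139 lay in CCSER1, which is 19.8% of its 702 pairs, and 99 in DLG2, 7.76% of its 1276 pairs. CCSER1 had 0 pairs that were higher at this p, and 63 of its 702 differences were above 0. Limma with voom-type precision weights on recovered contacts called 20 pairs higher and 105 lower, against 0.871% and 0.420% of all pairs, and 39 of the lower pairs lay in CCSER1, 37 in DLG2, 15 in LRP1B and 11 in IMMP2L. By the same tool 17 of the 20 higher pairs lay in MACROD2. Without RIS 1, and likewise without RIS 2, it called 0 higher and 2 lower pairs within the 8 genes, both of them in DLG2. Without Growing 1, 2 or 3 it called 11, 9 and 5 higher and 57, 85 and 82 lower. Of all pairs it then called 0.334%, 0.492% and 0.618% higher and 0.205%, 0.36% and 0.393% lower. Its 25278 calls over all pairs became 2516 without RIS 1 and 1733 without RIS 2. Between genes and flanks limma on balanced values called 0 of 9131 pairs. At an unadjusted p under 0.05 there were 456 higher and 533 lower, which is 4.99% and 5.84%, near the 4.78% and 5.42% of all pairs. The weighted tool called 20 of these pairs higher and 15 lower, where it called 0.871% and 0.420% of all pairs. Nearly all of these calls were lost with either RIS library left out.

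The 8 genes did not move as one group among the long genes. Counting the 7 measures, DLG2 was called in 6, CCSER1 in 5, FHIT and LRP1B in 4, CSMD1 and WWOX in 3 and IMMP2L and MACROD2 in 2, and in each gene 1 of these was the trans share. Several measures are built partly from the same pairs of bins, so calls in them are not independent of each other. Calls in several measures were common among long genes. Of these, 59.6% were called in self-contact, 4.36% in end contact, 66.8% in insulation and 56.5% in compartment score. A further 3 measures called 51.2% (contact with flanks), 66.8% (preference) and 95.3% (trans share). FHIT was the one gene of the 8 called higher in insulation score and in compartment score, and with MACROD2 it was called higher in self-contact. Of 16 other long genes known at common fragile sites, 8 fell and 1 rose in preference for A over B, where 40.4% and 26.4% of long genes did, and 5 fell and 4 rose in compartment score, where 32.6% and 23.9% did. Their self-contact fell in 6 and rose in 4, where 27.0% and 32.6% of long genes did, and their insulation score fell in 6 and rose in 2, where 32.0% and 34.8% did. Their median difference in preference was -0.36, between those of the 8 genes and of all long genes. Among those called in most measures were CNTNAP2, a neuronal cell adhesion gene called in 7, and CTNNA3, a catenin gene, and NBEA, a gene of membrane traffic, each called in 6.

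CNTNAP2 fell by 0.35 in self-contact and by 1.68 in preference. It also fell by 0.20 in compartment score and by 1.23 in end contact (adjusted p = 0.0134), measures in which CCSER1 did not pass. Among genes outside both lists, NKAIN3 and NFIA were among the 3 whose 7 differences, each divided by its SD over 321 genes, lay nearest to the median of the 8 genes, at distances of 0.680 and 0.870. Of the 8 genes themselves CSMD1 lay nearest to their median, at 0.333, and CCSER1 farthest, so the median profile described CSMD1 well and CCSER1 poorly. In preference for A over B, NKAIN3 and NFIA differed by -0.87 and -0.84.

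**Figure D5:**
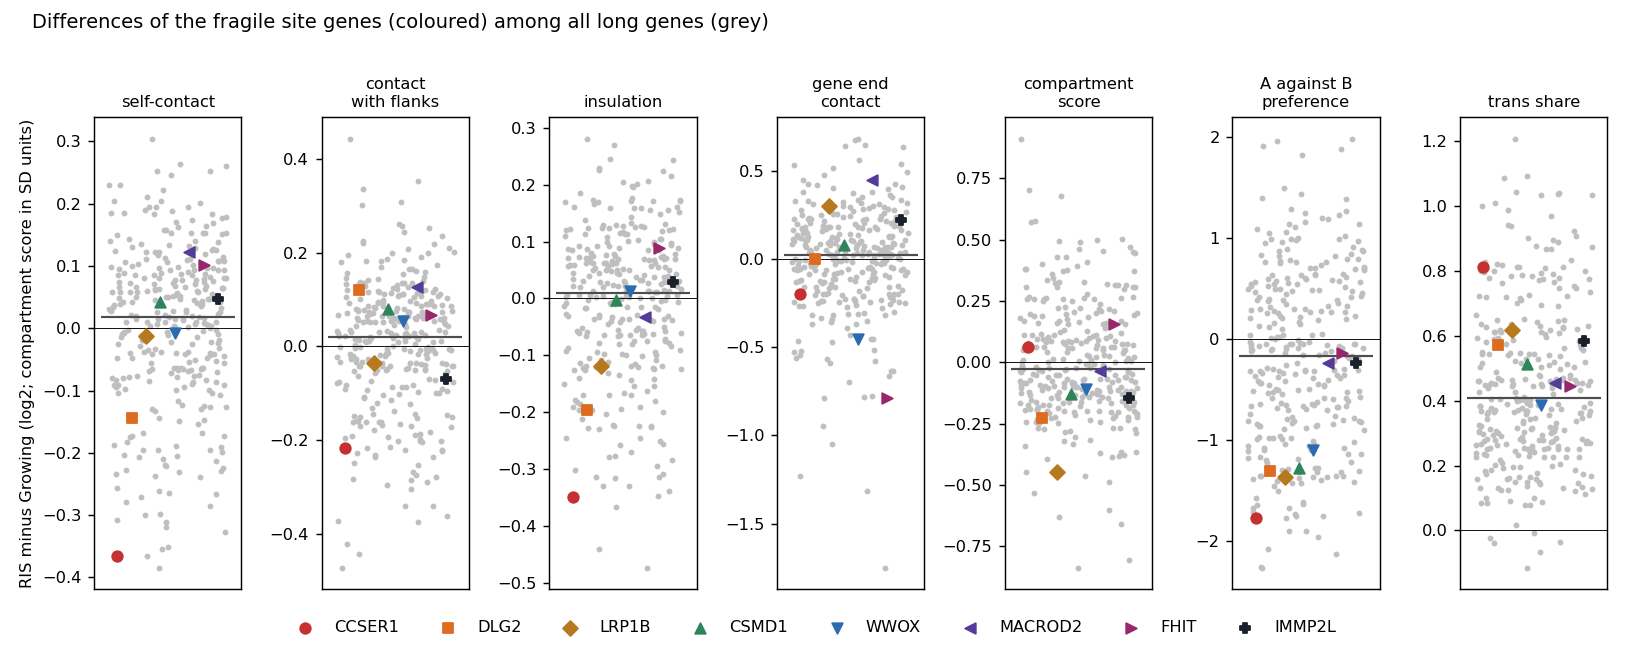
RIS minus growing difference in the 7 measures (y axis, log2, or SD units for the compartment score) for the 8 genes, coloured, and for all tested long genes, grey, with the median of the latter as a line. The 8 genes spread over the range of the long genes in most panels, and in preference for A over B 5 of them lie between -1.77 and -1.10, below the median of -0.16.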

How the data were processed

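Hi-C libraries of growing (3) and RIS (2) cells were used. Per the labels and methods the authors aligned reads to hg19 with HiC-Pro after FastQC, removed artefacts and duplicates and balanced each library by ICE in 40 kb bins. The deposited signal is the balanced contact of a pair of bins, with the same total in each library. Whole contacts, recovered through a factor for each bin in 100% of values (tolerance 0.05), served as depth and as an alternative. The members and lists were chosen with earlier results of these data known.

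Expected contact was the mean at the same distance, chromosome and library. Each of 7 measures gave 1 value per gene and library for protein-coding genes of at least 500 kb with at least 80% usable bins, 322 of 323, and 321 for end contact. They were tested with limma (lmFit and eBayes, no covariates) with Benjamini-Hochberg adjustment at 5%. "Called" means past this threshold. Pairs of bins up to 2 Mb apart with a mean of at least 5 went through limma as log2(value + 0.5), after a loess on abundance (span 0.3, 4 iterations). The study calls its replicates biological, but the labels do not say that they are separate cultures, so p-values measure the spread between these libraries, which may be technical. Of the first 2 components the first followed gene density better in 115 of 115 combinations of chromosome and library. Functions were tested on simulated data. The named genes are the 8 members, at most 4 of 16 other fragile site genes called in most measures and the 3 nearest to the members' median, of which some are not reported here; all 16 symbols were matched, older ones through their current symbols. Alternatives covered gene length, scaling, blocks, windows, bin sizes, balancing and each library left out. Capture Hi-C, whose regions hold none of these genes, and proteins were not used here. Software was Python 3.11.15, numpy 2.4.6, scipy 1.17.1, R 4.3.3 and limma 3.58.1.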

Additional observations from a re-analysis of the deposited data

How the results depend on the processing

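Of 695 values of the 8 genes under alternative settings, 618 kept their direction and their side of the threshold, 17 lost and 22 gained the call, and 38 changed sign. One alternative, self-contact without correction for distance, was chosen after seeing the data. The calls of CCSER1 and DLG2 in self-contact, of CCSER1, DLG2, LRP1B and FHIT in insulation, of LRP1B and DLG2 in compartment score and of 5 genes in preference held under each alternative of their measure. Calls gained beside those given with the results were IMMP2L in self-contact with the expected value from all chromosomes (0.06), LRP1B in self-contact without correction for distance (-0.18), MACROD2 in contact with flanks among genes of at least 300 kb (0.13) and with the expected value from all chromosomes (0.18), and MACROD2 in preference with a replicate block (-0.30). Replicate numbers were not taken to pair the libraries, since the labels do not tie them to a shared culture or day and only 2 pairs exist. The correlations of same-numbered libraries ranged from -0.47 to 0.52 over the 7 measures, with both positive in trans share (0.52 and 0.36), both negative in end contact and contact with flanks, and mixed signs in the other 4. A replicate block called 4 members in self-contact, 4 in insulation, 6 in compartment score, 2 in contact with flanks, 6 in preference and 8 in trans share. Of all long genes it called 55.6%, 51.6%, 74.8%, 41%, 74.5% and 95.3% in the same order, so the counts of members were near or below these shares. It called 0 long genes in end contact and 0 pairs of bins.

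Changes of sign were mostly of values near 0, though DLG2 passed in both directions in contact with flanks. With a replicate block they were WWOX in self-contact (0.00921) and CSMD1 in insulation (0.0103). With a library left out, values that passed through 0 ranged from -0.043 to 0.0286 for WWOX and -0.0405 to 0.0146 for LRP1B in self-contact, from -0.17 to 0.18 for DLG2 and -0.0800 to 0.24 for CSMD1 in end contact, from -0.0107 to 0.0103 for CSMD1 and -0.0119 to 0.0369 for WWOX in insulation, and from -0.0754 to 0.00418 for MACROD2 in compartment score. The extremes came with RIS 1 or RIS 2 left out, except the upper value of CSMD1 in insulation (without Growing 3). Before balancing the changes were IMMP2L in self-contact (-0.0488), and CSMD1 (-0.0328) and DLG2 (-0.15) in end contact. With the expected value from all chromosomes they were WWOX in self-contact (0.0348) and DLG2 in end contact (-0.000514), and as means of log2 CSMD1 (-0.0151) and MACROD2 (-0.00698) in self-contact. Without correction for distance self-contact changed sign in FHIT (-0.0400), IMMP2L (-0.0918, adjusted p of limma 0.0151), CSMD1 (-0.10, adjusted p of limma 0.00681), WWOX (0.0296) and MACROD2 (-0.0343). Centred on the median gene they were DLG2 in end contact (-0.0276), CCSER1 in compartment score (-0.053) and WWOX in trans share (-0.0234), and with duplicate class as a block DLG2 in end contact (-0.0283). With other windows they were, in end contact, LRP1B with 1 bin (-0.26) and FHIT (0.14) and DLG2 (-0.0561) with 5, in insulation over 1000 kb CSMD1 (0.0226), WWOX (-0.0224) and MACROD2 (0.0201), with flanks of 500 kb IMMP2L (0.023), DLG2 (-0.19) and MACROD2 (-0.00879), and in preference with 10% of bins FHIT (0.0793). The cause was not tested.

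Counts of called long genes moved with the number of genes tested. With genes of at least 300 kb they were 444 in self-contact, 81 in end contact, 495 in insulation, 462 in compartment score, 457 in contact with flanks, 481 in preference and 743 in trans share. With genes of at least 800 kb they were 78, 8, 99, 76, 68, 98 and 126 in the same order. The share of tested genes that was called moved too in some measures. In insulation it was 60.3% from 300 kb, 66.8% in the main setting and 76.2% from 800 kb. In end contact it was 9.88%, 4.36% and 6.2% in that order, and in compartment score 56.3%, 56.5% and 58.5%. The reason was not tested. In end contact 14 calls became 0 with 1 bin, 94 with 5 bins, 29 before balancing and 0 to 12 with a library left out. With a library left out the calls in compartment score ranged from 96 to 212, the lowest being without RIS 1. The 760 called pairs of bins became 117 with a smallest mean of 10, 0 with 1, 162 with a pseudocount of 1 and 0 with any library left out. Limma with voom-type weights on recovered contacts called 25278 pairs. Without Growing 1, 2 or 3 it called 10568, 16694 and 19804, and without RIS 1 or RIS 2 it called 2516 and 1733. RIS 1 was the shallowest library, and the part of depth in these counts was not tested.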
